A study of Homo sapiens with 12 samples.

Results

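NF-kB is a family of dimeric transcription factors that B cells use downstream of the antigen receptor, CD40 and Toll-like receptors. Its subunits are held in the cytoplasm by IkB proteins until a signal removes them, and NF-kB then switches on its own inhibitors, so that the response is limited by feedback. In diffuse large B-cell lymphoma the pathway is often active, and the canonical arm, through RELA, REL and NFKB1, is told apart from the non-canonical arm, through RELB and NFKB2. Described here are 10 genes of this system: the subunit genes NFKB1, NFKB2, REL, RELA and RELB, the inhibitor and feedback genes NFKBIA, NFKBIE and TNFAIP3, and the target genes TRAF1 and LTB. They were chosen by name, among 28278 genes in the count table, and all 10 had enough counts to be tested.

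RNA was counted by MARS-seq, which sequences barcoded cDNA from the 3′ ends of transcripts, in untreated OCI-Ly7 cells, an established B-cell lymphoma line from a pleural effusion. The 4 lines were an EZH2 Y646N gain-of-function mutant (2 libraries), a kmt2d-/- mutant (3 libraries), a double mutant carrying kmt2d-/- and EZH2 Y646N (3 libraries) and the unedited wild type (3 libraries). Every mutant was a CRISPR derivative of OCI-Ly7, and the labels do not say whether a line is 1 clone or whether replicates are separate cultures, so the tests reflect the spread among these libraries, which may be technical. Replicate 3 of the EZH2 mutant was not analysed here.

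Library totals ran from 1118710 counts, in EZH2 mutant replicate 1, the shallowest library, to 3107871. B-cell markers summed to 13459 CPM or more of the total in every library. Markers of T and NK cells summed to at most 1.22 CPM, with CD3D, CD2 and CD8A at 0. Counts of KMT2D itself did not separate the lines, at 34.5 to 41.1 normalised CPM in the KMT2D mutant, 33.7 to 65.6 in the double mutant and 27.2 to 44.2 in wild type. The labels do not say which part of the gene was edited, so 3′ counts do not check the genotypes.

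The members lie on different chromosomes except for NFKBIE, TNFAIP3 and LTB, all on chromosome 6. In GENCODE 29 on GRCh38, LTB spans chr6:31580525-31582522 on the minus strand, and TNFAIP3 spans chr6:137867188-137883312 on the plus strand. REL spans chr2:60881521-60931610 and RELB spans chr19:45001430-45038198, both on the plus strand. TNFAIP3 shares 1046 bases with the antisense gene AL357060.1, and REL shares 5702 bases with AC010733.2 on its own strand. The strand used in counting is not given in the sources used here, so reads of TNFAIP3 and its antisense partner cannot be told apart. Over the bases that REL shares with AC010733.2, reads cannot be told apart under any strand setting. Neither AC010733.2 nor AL357060.1 is in the count table.

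The sequences before the transcription starts of 3 members that fell in the EZH2 mutant, REL, TNFAIP3 and LTB, and of NFKBIA, which was not called, are shown because all 4 are known NF-kB targets. Each window holds 250 bases before and 50 bases after the start, taken from RefSeq on GRCh38.p14 and read 5′ to 3′ on the gene's strand. Capitals mark matches to a pair of patterns of the kappaB type, searched on either strand, with overlapping matches merged. The patterns approximate the kappaB consensus, the sequence that NF-kB dimers bind. Their middle bases are free, so a match need not meet that consensus. The windows are REL on chr2:60881324-60881623 (+), TNFAIP3 on chr6:137867009-137867308 (+), LTB on chr6:31582376-31582675 (-) and NFKBIA on chr14:35404700-35404999 (-).
REL: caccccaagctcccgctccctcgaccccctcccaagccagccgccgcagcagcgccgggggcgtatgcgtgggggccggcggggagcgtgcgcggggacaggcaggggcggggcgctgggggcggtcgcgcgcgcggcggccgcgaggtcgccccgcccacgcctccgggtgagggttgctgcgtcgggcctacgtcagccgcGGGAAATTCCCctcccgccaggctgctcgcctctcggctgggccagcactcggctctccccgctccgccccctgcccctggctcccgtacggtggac
TNFAIP3: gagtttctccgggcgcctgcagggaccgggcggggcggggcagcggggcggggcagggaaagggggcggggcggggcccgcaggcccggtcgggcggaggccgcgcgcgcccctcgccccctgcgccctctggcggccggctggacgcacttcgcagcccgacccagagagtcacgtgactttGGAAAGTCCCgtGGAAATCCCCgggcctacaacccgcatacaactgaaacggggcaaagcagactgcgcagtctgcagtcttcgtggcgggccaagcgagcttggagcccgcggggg
LTB: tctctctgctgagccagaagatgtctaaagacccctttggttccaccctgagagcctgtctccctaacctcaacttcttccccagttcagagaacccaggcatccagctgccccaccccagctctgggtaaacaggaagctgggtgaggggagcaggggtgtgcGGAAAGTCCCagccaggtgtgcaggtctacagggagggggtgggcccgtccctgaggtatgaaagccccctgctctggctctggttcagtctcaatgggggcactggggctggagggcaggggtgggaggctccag
NFKBIA: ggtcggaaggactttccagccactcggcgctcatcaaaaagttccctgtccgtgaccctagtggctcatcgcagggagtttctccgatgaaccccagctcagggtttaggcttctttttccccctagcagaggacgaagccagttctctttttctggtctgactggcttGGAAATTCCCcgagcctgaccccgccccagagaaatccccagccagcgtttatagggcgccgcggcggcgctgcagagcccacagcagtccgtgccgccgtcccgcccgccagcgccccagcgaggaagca
The matches begin 47 and 46 bases before the start in REL, 67 and 55 in TNFAIP3, 86 in LTB and 81 in NFKBIA.

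Windows were found for 8 of the 10 members, and 7 of these 8 held a match, against 15.2% of 27305 genes. Over windows, 10 of the 15 of the members and 13% of all 35116 held one. The windows of LTB overlap almost wholly and hold the same match, which is counted in each. RELA was the member without a match. RELB and NFKBIE had no window. The patterns and windows were chosen with the sequences in view, so these shares are no test. A match describes letters, not a bound site. REL, TNFAIP3 and LTB fell in the EZH2 mutant while NFKBIA, with the same kind of match, was not called.

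Levels below are normalised CPM, which are counts relative to library size after scaling by TMM factors, and differences are log2 fold changes from edgeR's quasi-likelihood test, with adjusted p by Benjamini-Hochberg over 8813 genes and 0.05 as the threshold. A gene past it is called higher or lower. Lack of overlap between so few libraries is a description and not a test, and it arises easily without a difference. Since 3′ counts depend on each gene's own tail, levels are compared between lines, not between genes. In bulk RNA, fewer cells of a type and less RNA per cell cannot be told apart.

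**Figure D1:**
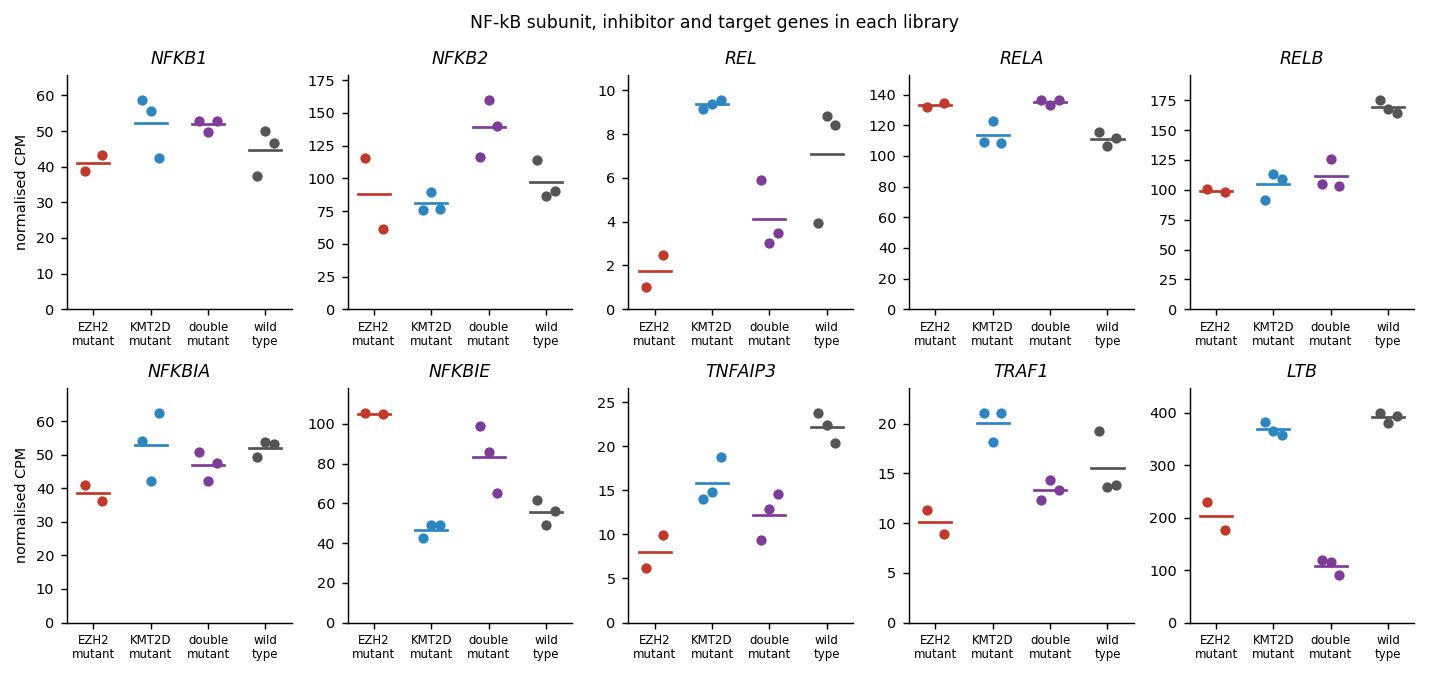
Each panel plots 1 gene, with normalised CPM on the vertical axis and 1 point per library in the EZH2 mutant, KMT2D mutant, double mutant and wild type; bars are line means. LTB at 90.7 to 118 CPM in the double mutant and 177 to 229 in the EZH2 mutant lies below the wild type at 380.1 to 400.0.

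In the EZH2 mutant, 5 of the 10 members were called against wild type, where 32.3% of all tested genes were called. LTB, TNFAIP3, RELB and REL fell, and NFKBIE rose. The median log2 fold change of the members was -0.54, beside -0.04 over all tested genes. Calls were 4 lower and 1 higher, beside 15.1% of tested genes lower and 17.1% higher. The 50 tested genes nearest to REL had a median of -0.66, those nearest to NFKBIA -0.60, to NFKB1 -0.50 and to TNFAIP3 -0.38. Medians around the others were -0.05 for LTB, -0.03 for TRAF1, 0.04 for NFKBIE, 0.13 for RELB, 0.20 for RELA and 0.23 for NFKB2. Whether members changed apart from their neighbours was not tested.

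Among subunits, RELB, the transactivating partner of NFKB2 in the non-canonical arm, was at 100.4 and 98.3 CPM in the EZH2 mutant, against 175, 167 and 164 CPM in wild type. Both EZH2 mutant libraries were below all 3 wild-type libraries. RELB fell by 0.77 on the log2 scale (SE 0.16, adjusted p = 0.00106). REL, the c-Rel subunit of lymphoid cells, was at 1.02 and 2.48 CPM, or 1 and 5 counts, in the EZH2 mutant. It was at 3.96, 8.84 and 8.43 CPM, or 7, 26 and 22 counts, in wild type. REL fell by 1.86 (SE 0.57, adjusted p = 0.017), and this call ended on leaving out either EZH2 mutant library, replicate 1 (log2 fold change -1.52, adjusted p = 0.0984) or replicate 2 (-2.78, adjusted p = 0.0515). It also ended with DESeq2 (adjusted p = 0.0509) and with trends of GC content and abundance removed (-1.19, adjusted p = 0.107). Counts of 6 in the EZH2 mutant limit its precision.

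The other subunits were not called. RELA, the p65 subunit, was at 132 and 135 CPM in the EZH2 mutant and 106 to 115 CPM in wild type, without overlap, and its log2 fold change was 0.26 (95% interval -0.01 to 0.54). NFKB1, the p105 and p50 subunit, differed by -0.12 (-0.52 to 0.27). NFKB2, the p100 and p52 subunit, was at 116 and 61.1 CPM in the EZH2 mutant libraries, which spanned the wild-type range of 86.7 to 114, and its log2 fold change of -0.18 was 0.26 when replicate 2 of that mutant was left out and -0.64 (adjusted p = 0.0537) when its replicate 1 was. With trends of GC content and abundance removed, NFKB2 was called lower in the EZH2 mutant, at -0.49 (adjusted p = 0.0259).

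Of the inhibitor and feedback genes, NFKBIE rose, TNFAIP3 fell and NFKBIA was not called. NFKBIE, which encodes IkB epsilon, was at 105 CPM in both EZH2 mutant libraries, against 61.7, 49.3 and 56.0 CPM in wild type. It rose by 0.92 (SE 0.18, adjusted p = 0.000833). TNFAIP3, which encodes the ubiquitin editing enzyme A20 that ends NF-kB signalling, was at 6.15 and 9.93 CPM in the EZH2 mutant and at 23.8, 22.4 and 20.3 CPM in wild type. No EZH2 mutant library reached a wild-type library, and TNFAIP3 fell by 1.37 (SE 0.32, adjusted p = 0.00308). NFKBIA, which encodes IkB alpha, was lower without overlap, at 41.0 and 36.2 CPM against 49.2 to 53.7 CPM in wild type. Its log2 fold change of -0.45 missed the threshold (adjusted p = 0.0896) and passed it with upper-quartile scaling, which moves the median of all genes by -0.16, and with a stricter filter.

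Of the target genes, LTB fell and TRAF1 was not called. LTB, which encodes lymphotoxin beta, a membrane anchor of the lymphotoxin heterotrimer, was at 229 and 177 CPM in the EZH2 mutant and at 400.0, 380.1 and 395 CPM in wild type. The groups did not overlap, and LTB fell by 0.96 (SE 0.15, adjusted p = 0.000106). TRAF1, an adaptor of TNF-family receptors, was at 11.3 and 8.94 CPM in the EZH2 mutant and 13.6 to 19.2 CPM in wild type. Its log2 fold change was -0.64 (95% interval -1.24 to -0.04, adjusted p = 0.118). The interval leaves out 0 only through the normal approximation, as the unadjusted p of the quasi-likelihood test was 0.0513. LTB, RELB, NFKBIE and TNFAIP3 kept their calls under all 21 alternatives.

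**Figure D2:**
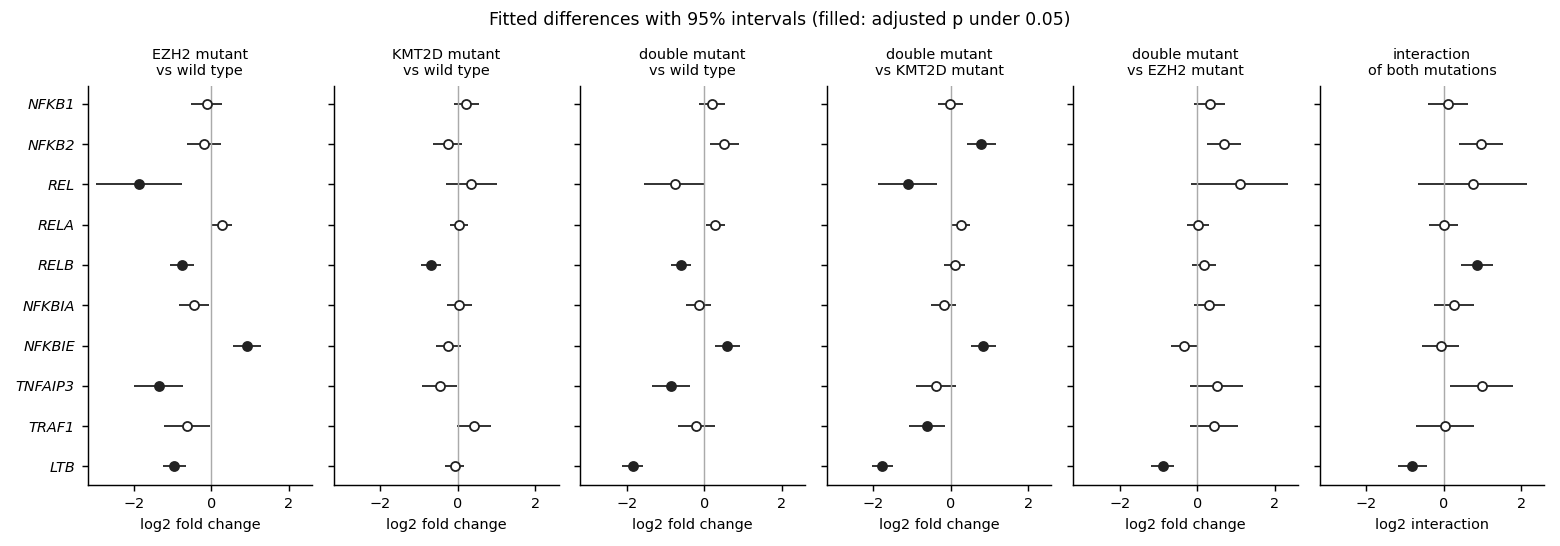
Log2 fold change (horizontal axis) of each member in 5 comparisons and the interaction, with its 95% interval from the SE by a normal approximation. Filled points passed an adjusted p of 0.05. The interval of LTB lies below 0 in every comparison that sets a line with mutant EZH2 against a line without it.

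In the KMT2D mutant, 1 of the 10 members was called, and it was lower, where 7.66% of tested genes were called, 4.48% lower and 3.18% higher. RELB was at 91.1, 113 and 109 CPM in the KMT2D mutant, against 175, 167 and 164 CPM in wild type. The libraries did not overlap, and RELB fell by 0.70 (SE 0.13, adjusted p = 0.00202). No other member passed, and the median of the members was -0.03, beside 0.00 over all tested genes. LTB was at 382, 365 and 358 CPM in the KMT2D mutant, and its difference of -0.09 has a 95% interval from -0.33 to 0.16. TNFAIP3 was at 14.0, 14.8 and 18.8 CPM, all below wild type, and its log2 fold change of -0.48 was not called (adjusted p = 0.248). NFKBIE was at 42.3, 49.0 and 49.0 CPM, also all below wild type, with a log2 fold change of -0.25 (-0.58 to 0.08).

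RELB lies on the long arm of chromosome 19, where genes were lower in the KMT2D mutant as a block. Of 373 tested genes of that arm, 189 were lower and 5 higher, with a median of -0.72 beside 0.02 for genes elsewhere. The 50 tested genes nearest to RELB had a median of -0.82, and 36 of them were at or below RELB. RELB, at -0.70, lay among them, and whether it changed apart from them was not tested. BCL3, an atypical IkB protein that acts in the nucleus, and NFKBIB, which encodes IkB beta, lie on the same arm, and both fell, with log2 fold changes of -0.64 (adjusted p = 0.0137) and -0.84 (adjusted p = 0.0229). NFKBID, which encodes another IkB protein of the nucleus, lies there too and was not called, at 32.3 ± 2.69 CPM in the KMT2D mutant and 30.6 ± 5.65 CPM in wild type (SD, n = 3 each), a log2 fold change of 0.08 (adjusted p = 0.85).

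In the EZH2 mutant the neighbours of RELB had a median of 0.13 and 10 of 50 were at or below RELB, and in the double mutant against wild type the median was 0.14 and 6 of 50 were at or below it. RELB fell in both of these comparisons. Between the double mutant and the KMT2D mutant the neighbours had a median of 1.01, while RELB, at 105, 126 and 103 CPM in the double mutant and 91.1, 113 and 109 CPM in the KMT2D mutant, had a log2 fold change of 0.10 (adjusted p = 0.603). In that comparison 6 of 50 neighbours were at or below RELB.

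**Figure D3:**
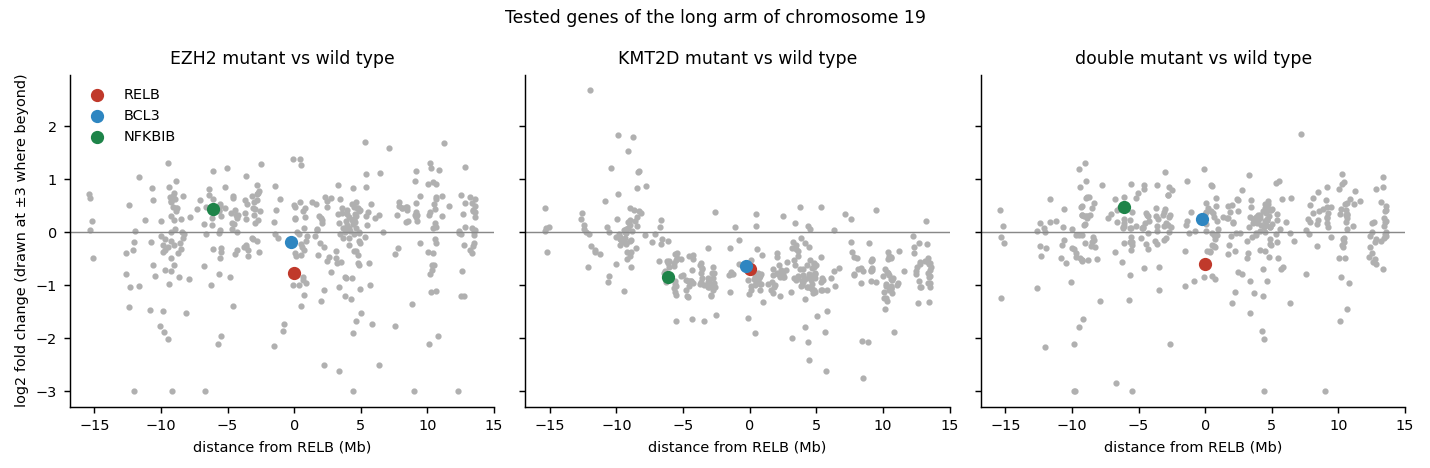
Log2 fold change of tested genes of the long arm of chromosome 19 (vertical axis) against distance from RELB in megabases, in the 3 comparisons with wild type. In the KMT2D mutant panel most points lie below 0 and RELB, at -0.70, lies among them; in the other panels RELB lies below the median of its neighbours, which is 0.13 and 0.14.

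The double mutant had 4 of 10 members called against wild type, 3 lower and 1 higher, where 23.7% of tested genes were called, 11.6% lower and 12.1% higher. LTB, RELB and TNFAIP3 fell and NFKBIE rose, and the median was -0.17, beside -0.01 over all tested genes. LTB was at 118, 116 and 90.7 CPM in the double mutant, against 400.0, 380.1 and 395 CPM in wild type. Every double mutant library lay far below the wild-type ones, and LTB fell by 1.85 (SE 0.14, adjusted p = 1.13e-08).

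RELB was at 105, 126 and 103 CPM in the double mutant and fell by 0.60 (SE 0.13, adjusted p = 0.00292). TNFAIP3 was at 9.38, 12.8 and 14.5 CPM, below all wild-type libraries, and fell by 0.86 (SE 0.25, adjusted p = 0.0176). That call was lost without double mutant replicate 1, where the log2 fold change was -0.68 (adjusted p = 0.105), and with trends of GC content and abundance removed (-0.58, adjusted p = 0.0959). NFKBIE was at 98.7, 86.1 and 65.1 CPM in the double mutant, above all wild-type libraries, and rose by 0.59 (SE 0.16, adjusted p = 0.0132). It was not called without wild-type replicate 2 (0.48, adjusted p = 0.0741) or double mutant replicate 1 (0.44, adjusted p = 0.0994).

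NFKB2 was higher without overlap, at 116, 160.1 and 140.1 CPM in the double mutant, against 114, 86.7 and 90.5 CPM in wild type. It missed the threshold, with a log2 fold change of 0.52 (95% interval 0.15 to 0.89, adjusted p = 0.0548), and passed it under 7 of 21 alternatives. These included leaving out EZH2 mutant replicate 1 (0.51, adjusted p = 0.0153) or replicate 2 (0.52, 0.0132), wild-type replicate 1 (0.64, 0.0304) or double mutant replicate 1 (0.63, 0.0429). REL was at 5.92, 3.02 and 3.49 CPM in the double mutant, from 22 counts, and its log2 fold change of -0.77 was not called (adjusted p = 0.176). RELA, NFKB1, NFKBIA and TRAF1 were not called, with log2 fold changes from -0.20 to 0.29.

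Against the KMT2D mutant, the double mutant had 5 of 10 members called, 3 lower and 2 higher, where 41.9% of tested genes were called, 20.8% lower and 21.2% higher. The members' median was -0.10, beside -0.02 over all tested genes. NFKB2 was at 116, 160.1 and 140.1 CPM in the double mutant and at 76.2, 90.0 and 76.6 CPM in the KMT2D mutant, and it rose by 0.78 (SE 0.19, adjusted p = 0.00337). NFKBIE rose by 0.84 (SE 0.17, adjusted p = 0.000553). LTB was at 118, 116 and 90.7 CPM in the double mutant, against 382, 365 and 358 CPM in the KMT2D mutant, and fell by 1.76 (SE 0.13, adjusted p = 1.06e-08).

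REL was at 5.92, 3.02 and 3.49 CPM in the double mutant, against 9.14, 9.40 and 9.57 CPM in the KMT2D mutant, and fell by 1.11 (SE 0.39, adjusted p = 0.0277). Leaving out KMT2D mutant replicate 1 or 3, or double mutant replicate 2 or 3, ended that call (adjusted p 0.0602 to 0.0925), as did DESeq2 (0.0751) and removing trends of GC content and abundance (log2 fold change -0.40, adjusted p = 0.412). TRAF1 was at 12.3, 14.4 and 13.4 CPM in the double mutant, against 21.0, 18.1 and 21.1 CPM in the KMT2D mutant. It fell by 0.61 (SE 0.24, adjusted p = 0.0479), a call lost under 12 of 21 alternatives. It was lost without either EZH2 mutant library, replicate 1 (-0.59, adjusted p = 0.0568) or replicate 2 (-0.60, 0.0513), without any 1 of the double mutant libraries, and without KMT2D mutant replicate 1 or 3 (adjusted p up to 0.129).

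Between the double mutant and the EZH2 mutant 1 of 10 members was called, and it was lower, where 2.29% of tested genes were called, 1.58% lower and 0.715% higher. LTB was at 118, 116 and 90.7 CPM in the double mutant, against 229 and 177 CPM in the EZH2 mutant, without overlap. It fell by 0.90 (SE 0.15, adjusted p = 0.0018). The difference held under all 21 alternatives, with an adjusted p of at most 0.033. NFKB2 was next, with a log2 fold change of 0.70 (0.25 to 1.14, adjusted p = 0.121), while the EZH2 mutant libraries stood at 116 and 61.1 CPM. Without EZH2 mutant replicate 1 it was called, at 1.16 (adjusted p = 0.0101), as it was with no filter (0.69, adjusted p = 0.0108) and with trends of GC content and abundance removed (0.82, adjusted p = 0.00522).

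The interaction asks whether the double mutant departs from the sum of both single-mutant effects on the log2 scale. It was called for 2 of 10 members, where 3.02% of tested genes were called. For LTB it was -0.81 (SE 0.20, adjusted p = 0.0285), with log2 fold changes against wild type of -0.96 (EZH2 mutant), -0.09 (KMT2D mutant) and -1.85 (double mutant). The call for LTB was lost without EZH2 mutant replicate 1 (adjusted p = 0.116), KMT2D mutant replicate 1 (0.0762), KMT2D mutant replicate 3 (0.0526) or double mutant replicate 3 (0.0828).

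For RELB the interaction was 0.86 (SE 0.21, adjusted p = 0.0259), with log2 fold changes in the same order of -0.77, -0.70 and -0.60. It was lost without KMT2D mutant replicate 1 (0.0691), EZH2 mutant replicate 2 (0.092) or double mutant replicate 2 (0.08). Its 50 neighbours had a median interaction of 0.92, and the arm as a whole 0.71, and 22 of the 50 were at or below RELB. NFKB2 and TNFAIP3 were not called, at 0.96 (adjusted p = 0.0932) and 0.98 (0.253). The NFKB2 interaction was called without EZH2 mutant replicate 1 (1.44, adjusted p = 0.00409) or double mutant replicate 1 (1.11, 0.0468), with no filter (0.98, 0.00342) and with trends of GC content and abundance removed (0.88, 0.016), and it ranged from 0.53 to 1.44 on leaving out libraries.

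In order of line means, LTB was highest in wild type and the KMT2D mutant, whose libraries overlap, then in the EZH2 mutant and lowest in the double mutant, with no overlap at either of these steps. NFKBIE was highest in the EZH2 mutant, followed by the double mutant, then wild type and the KMT2D mutant, with no overlap between neighbours. Not called for NFKBIE were the double mutant against the EZH2 mutant (log2 fold change -0.33, adjusted p = 0.399) and the KMT2D mutant against wild type (-0.25, adjusted p = 0.43). TNFAIP3 was highest in wild type, apart from the rest, followed by the KMT2D mutant, the double mutant and the EZH2 mutant, whose neighbours overlap. RELB was highest in wild type, and the 3 mutant lines were close, at 112 ± 12.6 CPM in the double mutant, 105 ± 11.9 in the KMT2D mutant (SD, n = 3 each) and 99.3 ± 1.47 in the EZH2 mutant (SD, n = 2).

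LTB sits in a cluster of immune genes on chromosome 6 with LTA and TNF, which encode its partner lymphotoxin alpha and tumour necrosis factor. The genes within 100 kb were described after their values had been seen, and 15 were tested. In the double mutant 7 of them fell against wild type: ATP6V1G2, LTA, TNF, LTB, LST1, NCR3 and AIF1. Over all tested genes 11.6% were lower in that comparison. That share is no test here, as the count includes LTB itself, on which the window was centred. TNF and NCR3 had enough counts to be tested only through lines without mutant EZH2, which favours lower calls. Log2 fold changes were -1.88 for LTA, -2.97 for AIF1, -1.33 for ATP6V1G2 and -1.49 for LST1. TNF had 2 counts in the double mutant and 31 in wild type, a 10.7-fold lower level (95% interval 2.73 to 92.6). NCR3 had 1 and 34 counts, 23.6-fold lower (3.95 to 958). Intervals cover counting error only.

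The other 8 tested genes of the window, among them NFKBIL1, MICB, PRRC2A and BAG6, were not called in the double mutant. In the EZH2 mutant 5 of the 15 fell, beside 15.1% of all tested genes: LTB, ATP6V1G2 (log2 fold change -1.70), LTA (-1.49), AIF1 (-1.35) and TNF, which had 2 counts against 31 in wild type, 6.34-fold lower (1.61 to 54.6). This count too includes LTB itself and TNF, so the share beside it is no test. BAG6 rose by 0.40. In the KMT2D mutant AIF1 (-1.10) and PRRC2A (-0.51) fell. AIF1 is also a myeloid marker. The markers of myeloid cells summed to 14.2 to 15.2 CPM of the library total in the EZH2 mutant, 11.5 to 18.3 in the KMT2D mutant, 5.28 to 6.34 in the double mutant and 19.4 to 33.9 in wild type, with CSF1R, S100A8 and S100A9 at 0. AIF1 was the largest part of the sum in every line, at 10.1 normalised CPM on average in the EZH2 mutant, 11.6 in the KMT2D mutant, 3.21 in the double mutant and 24.8 in wild type. Other members of the list did not follow it. TYROBP averaged 4.55 normalised CPM in the EZH2 mutant, from 13 counts, and 0.113 CPM in wild type, from 1 count, and CD14 averaged 1.01 normalised CPM in the EZH2 mutant, 1.10 in the double mutant and 0.241 in wild type, from 2 to 6 counts a line.

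**Figure D4:**
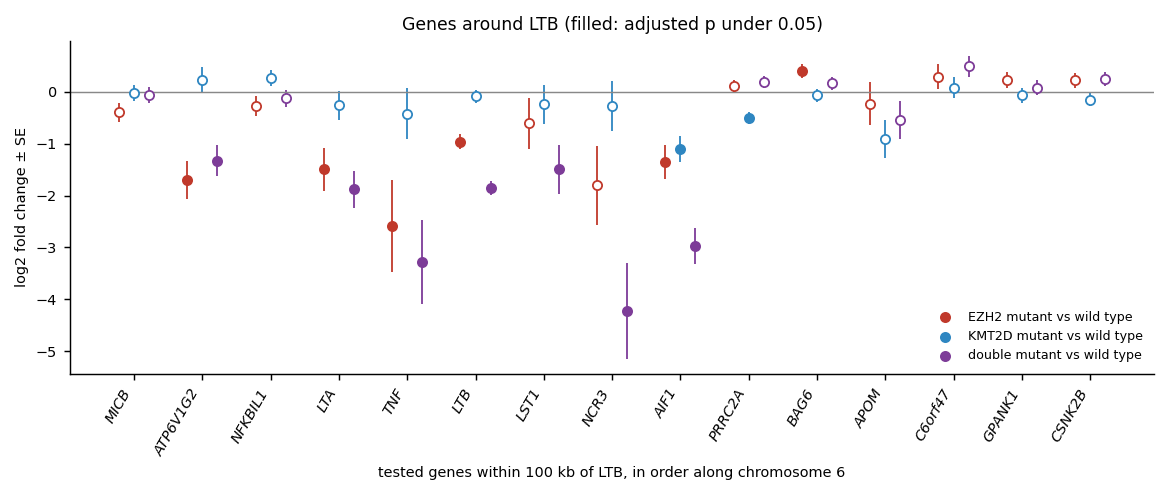
Log2 fold change with its SE (vertical axis) of the tested genes within 100 kb of LTB, in the 3 comparisons with wild type. Genes are evenly spaced in their order along chromosome 6. Filled points passed an adjusted p of 0.05. Called genes lie below 0 in the double mutant and, apart from BAG6, in the EZH2 mutant; values of TNF and NCR3 are fitted from few counts.

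Of 35 other NF-kB target genes, listed with earlier results of these data known, 20 were tested. STAT5A and TNF had enough counts to be tested only through lines without mutant EZH2, which favours lower calls in lines with it. The shares of all tested genes set beside counts of this list are therefore no test. In the EZH2 mutant 11 fell and 1 rose, where 15.1% of all tested genes were lower and 17.1% higher, and the median was -0.79, beside -0.04 over all genes. PIM1, a survival kinase, fell by 1.54 and IRF4, a transcription factor of activated B cells, fell by 0.67, while GADD45B rose by 0.94. STAT5A was at 0 in both EZH2 mutant libraries and had 28 counts in wild type, at least 3.81-fold lower with 3 counts set for the group. Leaving out EZH2 mutant replicate 2 left 2 that fell, and leaving out its replicate 1 or wild-type replicate 3 left 7, while the median was between -0.95 and -0.71 under all alternatives.

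In the double mutant 8 fell and 1 rose against wild type, where 11.6% of all tested genes were lower and 12.1% higher, with a median of -0.58: PIM1 (log2 fold change -1.21), CD83, an activation marker (-1.08), and LTA (-1.88) fell, and GADD45B rose by 0.84. In the KMT2D mutant PIM1 fell by 0.90 and CD83 rose by 0.57, and neither was called without KMT2D mutant replicate 3. Between the double mutant and the KMT2D mutant 8 fell and 1 rose, where 20.8% of all tested genes were lower and 21.2% higher, with 4 falling without KMT2D mutant replicate 1 or double mutant replicate 1. None was called between the double mutant and the EZH2 mutant or for the interaction. Germinal centre markers moved alongside: they summed to 99 to 156 CPM in the EZH2 mutant, 335 to 370 in the KMT2D mutant, 154 to 176 in the double mutant and 340 to 344 in wild type, and their part in these counts was not tested.

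**Figure D5:**
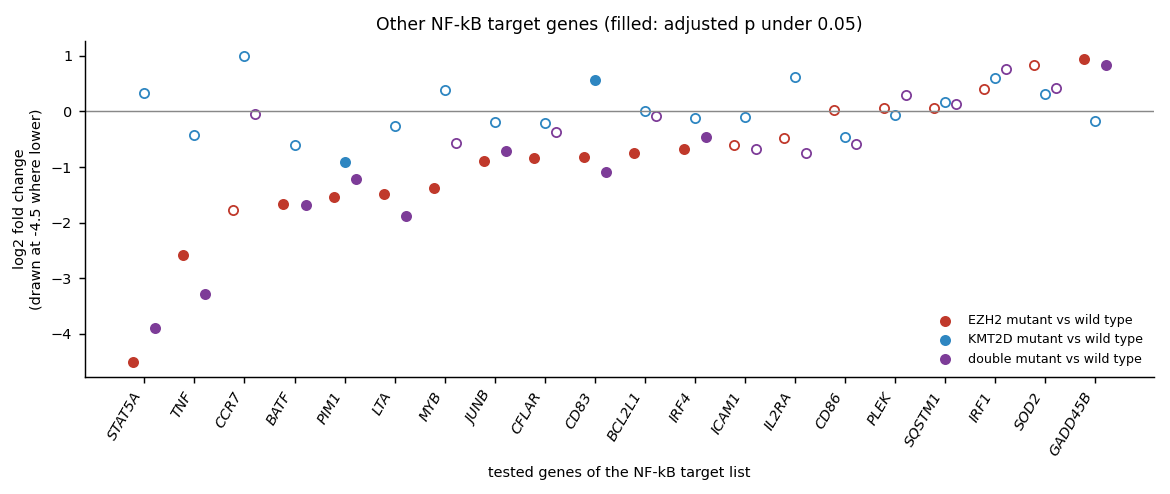
Log2 fold change (vertical axis) of the tested target genes outside the 10 members in the comparisons with wild type. Values below the drawn range are placed at its lower limit, which is given on the axis. Filled points passed an adjusted p of 0.05. More points lie below 0 than above it in the EZH2 mutant and the double mutant; STAT5A and TNF rest on few counts.

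Genes that signal to the subunits were described by arm. Of all tested genes, 17.1% were higher and 15.1% lower in the EZH2 mutant. In the double mutant against wild type 12.1% were higher and 11.6% lower. Of 7 tested genes of the Toll-like receptor and MYD88 arm, 3 rose in the EZH2 mutant: IRAK1, an interleukin 1 receptor associated kinase, by 1.08, the DNA receptor TLR9 by 1.38 and its chaperone UNC93B1 by 0.74. The same 3 genes rose in the double mutant, by 0.79, 0.69 and 0.85. TRAF6, a ubiquitin ligase of this arm, had 0 counts in the EZH2 mutant and 30 in wild type, at least 4.09-fold lower, and 22 counts in the double mutant, at least 4.32-fold higher than in the EZH2 mutant.

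Among 7 tested genes of the non-canonical arm and its receptors, TNFRSF13C, the receptor for BAFF, rose by 1.11 in the EZH2 mutant and rose by 0.86 in the double mutant. TNFRSF17, a receptor of plasma cells (log2 fold change -2.34), and the adaptor TRAF5 (-0.76) fell in the EZH2 mutant. TRAF5 rose by 0.80 in the KMT2D mutant, where 3.18% of all tested genes were higher. TNFRSF13B, the TACI receptor, fell by 2.66 in the double mutant, where it had 4 counts in all. Among 11 tested genes of ubiquitin editing, TNIP2, a partner of A20, rose by 0.78 in the EZH2 mutant and by 0.79 in the double mutant. CYLD, a deubiquitinase that limits NF-kB, fell by 2.15 in the EZH2 mutant, where it had 4 counts. The ubiquitin ligase PELI1 fell by 1.85 there, where it had 6 counts. Beside both lists stand 17.1% of all tested genes higher and 15.1% lower in the EZH2 mutant. In the double mutant the shares were 12.1% and 11.6%.

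The kinases of the IKK complex and its activators gave 1 call of 9 in the EZH2 mutant, where 32.3% of all tested genes were called. It was TAB3, with 2 counts against 36 in wild type, 7.36-fold lower (1.89 to 63.1). In the KMT2D mutant, where 7.66% were called, the 1 call was MAP3K14, the kinase that starts the non-canonical arm, which fell by 0.56. Between the double mutant and the KMT2D mutant MAP3K14 rose by 0.63, IKBKE rose by 0.47 and TANK fell by 1.86. The list of other IkB proteins had 5 tested genes and also holds NKIRAS2, which is not itself an IkB protein. BCL3, NFKBIB and NKIRAS2 rose between the double mutant and the KMT2D mutant, by 0.88, 1.32 and 0.41. The first 2 of these lie on the chromosome 19 arm described above, where the median was 0.82. In that comparison 3 of 7 tested genes of the Toll-like receptor arm were higher and 3 of 7 of the non-canonical arm lower. Of 11 ubiquitin genes, 3 were higher and 2 lower. Over all tested genes 21.2% were higher and 20.8% lower.

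Genes with line means most like those of the members were searched among 6519 tested genes with at least 10 CPM, by distance over the 4 lines after centring. The 3 members with the widest ranges were REL (range 1.98 on the log2 scale), LTB (1.85) and TNFAIP3 (1.39). Closest to REL were MAT2B at a distance of 0.068, NF1 at 0.075 and PRKRA at 0.091. Closest to LTB were PRAF2 at 0.17, RNPEP at 0.18 and ACBD7 at 0.26, and closest to TNFAIP3 were SNRNP48 at 0.13, STARD9 at 0.16 and LOC730098 at 0.16. With 4 line means per gene, such likeness is a description.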

How the data were processed

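The deposited table holds counts of reads per gene for 11 of the 12 samples, and its name calls them corrected without saying for what. The submitters' processing notes name Trim Galore 0.6.0, STAR 2.7.0f, cutadapt 1.15, FastQC and, with no role, DESeq2. How reads were assigned to genes, on which build and annotation and with what strand setting, is not given in the sources used here. Columns marked DM were read as the double mutant.

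The analysis used edgeR 4.0.16 and limma 3.58.1 in R 4.3.3. filterByExpr with a minimum count of 10 kept 8813 genes, TMM gave the scaling, and glmQLFit with robust estimation was fitted to all 11 libraries with a term for each line. P-values were adjusted by Benjamini-Hochberg over these genes, with 0.05 as the threshold. Log2 CPM used a prior count of 2. A floor of 3 counts is 0.914 to 3.07 CPM, depending on the library, so low genes such as REL are measured with little precision. Folds with 3 or fewer counts in a group come from summed counts, with a 95% interval, or with 3 counts over the group in place of 0.

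Tried as alternatives were 2 other scalings (RLE, upper quartile), 2 other filters (none, minimum count 20), 2 other tools (DESeq2 1.42.0, limma-voom), a fit of the compared lines alone, a replicate block, omission of each library, TMM without the long arm of chromosome 19, and removal of trends of GC content and abundance.

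All 10 members are named. From 7 lists with 95 other genes, counts called each way are given, with up to 4 members of smallest adjusted p per comparison, and others only where a count is 5 or fewer. The result of 1 of these lists is not reported here. Genes around LTB and the promoter windows printed were chosen after their values or sequences were seen. Members and lists were chosen with earlier results of these data known. Patterns of the kappaB type were searched in RefSeq promoter windows. The fit was tested on simulated data. Tables and figures used matplotlib 3.10.9, numpy 2.4.6 and pandas 2.3.3 under Python 3.11.15.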

Additional observations from a re-analysis of the deposited data

Results flagged for a closer look

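The double mutant departed from the sum of both single-mutant effects in RELB and LTB. For RELB the interaction was 0.86 on the log2 scale, with log2 fold changes against wild type of -0.77 (EZH2 mutant), -0.70 (KMT2D mutant) and -0.60 (double mutant). The 50 tested genes nearest to RELB had a median interaction of 0.92, with 22 of them at or below RELB, and 373 tested genes of the long arm of chromosome 19 had a median of 0.71. For LTB it was -0.81, with log2 fold changes of -0.96 (EZH2 mutant), -0.09 (KMT2D mutant) and -1.85 (double mutant). Each call was lost on leaving out some single libraries, which are named with their values above.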

How the results depend on the processing

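The calls of LTB, RELB, NFKBIE and TNFAIP3 in the EZH2 mutant, of RELB in the KMT2D mutant, of LTB and RELB in the double mutant against wild type, of LTB, NFKB2 and NFKBIE between the double mutant and the KMT2D mutant, and of LTB between the double mutant and the EZH2 mutant held under all 21 alternatives. On leaving out libraries, genes called ran from 1779 to 2874 in the EZH2 mutant, 339 to 802 in the KMT2D mutant and 1381 to 2286 in the double mutant against wild type. They ran from 99 to 242 between the double mutant and the EZH2 mutant, where no filter gave 381, only those lines 92 and trend removal 349. For the interaction they ran from 147 to 309, with 482 under no filter and 472 under trend removal. Members called ran from 3 to 5 between the double mutant and the KMT2D mutant (3 with DESeq2, 3 with trend removal), from 1 to 2 between the double mutant and the EZH2 mutant (2 with no filter, 2 with trend removal) and from 0 to 3 for the interaction. The cause was not tested. Depth limits genes with few counts, such as REL, TNF, NCR3, STAT5A and TRAF6.

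The sign turned for members that were not called. Under removal of GC content and abundance trends, values were 0.109 for NFKB1 and -0.01995 for RELA in the EZH2 mutant, 0.163 for LTB and -0.0368 for NFKBIA in the KMT2D mutant, 0.145 for NFKB1, -0.262 for RELB and 0.0787 for TNFAIP3 between the double mutant and the KMT2D mutant, and 0.0202 for the RELA interaction. Between the double mutant and the KMT2D mutant NFKB1 was 0.00878 with limma-voom and 0.0171 with TMM without chromosome 19q, and RELB was -0.053 with upper-quartile factors. RELA in the KMT2D mutant was -0.000873 with no filter. The RELA interaction was 0.0163 with upper-quartile factors, 0.0147 with no filter, 0.0125 with the strict filter and 0.0157 with TMM without 19q, and the TRAF1 interaction was -0.00545 with limma-voom.

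Leaving out libraries also turned signs, over -0.642 to 0.258 for NFKB2 in the EZH2 mutant, -0.0436 to 0.0759 for RELA and -0.0709 to 0.142 for NFKBIA in the KMT2D mutant, -0.177 to 0.0823 for NFKB1 and -0.0171 to 0.127 for RELB between the double mutant and the KMT2D mutant, and -0.011 to 0.0556 for RELA between the double mutant and the EZH2 mutant. Interactions ran over -0.0129 to 0.247 for NFKB1, -0.0302 to 0.0671 for RELA, -0.202 to 0.0815 for NFKBIE and -0.162 to 0.157 for TRAF1.

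Whether replicate numbers pair the samples cannot be told from these libraries. Same-numbered libraries correlated from -0.29 to 0.38 over 15 pairs, and 7 of 11 libraries were closest to one of their own number. The 2 EZH2 mutant libraries, centred on their own mean, mirror each other, with correlations of 0.376 and -0.376 to wild-type replicate 1. With a replicate block, 2445 genes were called in the EZH2 mutant, 629 in the KMT2D mutant, 2002, 3630 and 151 for the double mutant against wild type, the KMT2D mutant and the EZH2 mutant, and 230 for the interaction, with 5, 1, 4, 4, 1 and 2 members; the RELA interaction was 0.00245. Except for RELB in the KMT2D mutant and the members in the EZH2 mutant, TMM without 19q and trend removal were chosen after seeing the data. Upper-quartile scaling moved the median of all genes by -0.16 in the EZH2 mutant (1015 higher and 1762 lower, against 1511 and 1335), -0.11 in the double mutant (728 and 1318, against 1068 and 1019) and -0.15 between the double mutant and the KMT2D mutant (1342 and 2300, against 1864 and 1831).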
